A study of Mus musculus with 6 samples.

Results

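Perilipins and their partner proteins form the coat of the lipid droplet, the organelle in which cells store triglyceride, and 9 of their genes were followed here in mouse muscle stem cells with and without an intact Pnpla2 gene. The members were Plin2, Plin3, Plin4, Plin5, Cidec, Fitm1, Fitm2, Bscl2 and Hsd17b11. They were taken by gene symbol from the deposited count table of 20588 genes, where 8 of the 9 had a row. No row matched Cidec, which is not analysed here. Polyadenylated RNA was sequenced in 3 wild-type libraries (WT 1 to WT 3) and 3 knockout libraries (PKO 1 to PKO 3), with 15580176 to 18839151 counted reads each. All mice were C57BL/6NJ aged 2 months. One group is labelled WT and the other Pnpla2PKO. Which driver and which deleted segment lie behind the second label is not given in the sources used here. Muscle stem cells of both groups came from hind limb muscle by cell sorting, were expanded for 7 days, and then spent 16 h in medium holding 2% horse serum, a step after which myoblasts leave the cell cycle and differentiate. The labels do not say if replicate libraries stem from separate mice or cultures, so the tests measure the spread between libraries, which may be technical.

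A lipid droplet is a core of neutral lipid inside a single layer of phospholipid, and its coat proteins decide which lipases reach the core. Seipin (encoded by Bscl2) and the fat storage-inducing transmembrane proteins (Fitm1 and Fitm2) act in the endoplasmic reticulum, where droplets form. Perilipins 2 and 3 are the coat proteins of most cells outside fat tissue, whereas perilipin 5 is typical of oxidative tissue and perilipin 4 of fat and muscle. Pnpla2 encodes adipose triglyceride lipase, which takes the first fatty acid off stored triglyceride, and perilipin 2 protein is known to be degraded when it is not bound to a droplet.

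Plin2 and Hsd17b11 differed most between the genotypes. The stretch before the RefSeq start of each is shown so that its letters can be read beside the values of these members. The sequences are RefSeq promoter windows on the minus strand of GRCm38.p6, trimmed to the 250 bases before the transcript start and the first 10 bases of the transcript, at chr4:86670050-86670309 for Plin2 and chr5:104021787-104022046 for Hsd17b11. The deposited coordinates begin Hsd17b11 at 104021919, inside the stretch shown, so part of that stretch lies within the gene as counted. Capitals mark matches to the motifs searched.
Plin2: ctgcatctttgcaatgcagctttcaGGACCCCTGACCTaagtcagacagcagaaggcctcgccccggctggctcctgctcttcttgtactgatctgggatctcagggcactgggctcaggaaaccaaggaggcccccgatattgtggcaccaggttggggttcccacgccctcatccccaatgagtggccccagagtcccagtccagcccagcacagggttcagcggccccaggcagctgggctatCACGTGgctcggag
Hsd17b11: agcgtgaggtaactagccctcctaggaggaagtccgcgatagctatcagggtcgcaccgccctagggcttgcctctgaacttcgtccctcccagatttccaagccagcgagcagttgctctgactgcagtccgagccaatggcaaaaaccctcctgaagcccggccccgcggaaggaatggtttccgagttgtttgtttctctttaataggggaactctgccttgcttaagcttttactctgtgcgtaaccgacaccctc

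These motifs were searched on both strands of the full 300-base windows, of which all 9 members had at least 1 and together 13. The E-box CACGTG lay across the start of Plin2, with its first base at position -4, and in 7.15% of 32851 promoter windows of all genes. The half-site AGGTCA of nuclear receptors, repeated in the same direction after 1 free base with at most 2 mismatches, is the form bound by peroxisome proliferator-activated receptors (PPARs). Plin2 held such a repeat, on the opposite strand from position -225, as did 3.86% of all windows, and no other member window did. The single half-site, which is part of that match in Plin2, was in 4 of the 13 member windows (Plin2, both of Plin5 and 1 of Bscl2) and in 16.3% of all windows. The antioxidant response core TGACNNNGC was in 1 member window, that of Fitm1, and in 12.4% of all. Neither the window of Plin3 nor those of Plin4, Fitm2 and Hsd17b11 held any of these letters. These matches describe the letters only.

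The deposited counts of Pnpla2, the targeted gene, followed the labels. Its level in CPM (counts scaled to equal library size) was 21.1, 38.5 and 33.7 for WT 1 to WT 3 against 8.46, 15.97 and 15.5 for PKO 1 to PKO 3, so that the groups did not overlap. The log2 fold change was -1.22 ± 0.31 (SE), with an adjusted p of 0.191 in edgeR and 0.00796 in DESeq2. Before any comparison, markers of other cell types have to be set beside the genotypes, because bulk RNA cannot tell more cells of a type from more RNA per cell. Of 10 stromal markers (fibroblasts and fibro-adipogenic progenitors) all 10 were measured, and their summed level was 329 to 423 CPM in the WT libraries and 560, 2220 and 1326 CPM in PKO 1 to PKO 3. Col3a1, a collagen gene, made up 268 to 371 CPM of the WT sum and 458 to 679 CPM of the PKO sum. Col1a1, another, ran from 4.42 to 17.1 CPM in WT and from 29.3 to 858.2 CPM in PKO. Of the stromal markers 7 were tested, and all 7 were higher in PKO. Their median log2 fold change was 4.59, against -0.015 over all genes tested. At an unadjusted p under 0.05 in edgeR 7 were higher, against 10.2% of all genes. At an adjusted p under 0.05 edgeR called 0 of them, and DESeq2 called 7 higher, against 4.73% of all genes. Dpt, named after its values were seen, was at 0 in the WT libraries and in PKO 1. Summed leukocyte markers (7 of 8 measured) ran from 6.21 to 7.61 CPM in WT and from 13.3 to 18.9 CPM in PKO. This list was split too, with 3 of 4 tested genes higher and 1 lower. Its most abundant genes went opposite ways. Lyz2 was higher without overlap (means of 0.672 for WT and 7.03 CPM for PKO). Itgam was lower, with overlapping groups (2.94 and 2.10 CPM). Summed endothelial markers (6 of 6) ran from 2.95 to 4.38 CPM in WT and from 7.13 to 12.8 CPM in PKO. Pericyte markers (6 of 6) summed to 331 to 355 CPM in WT and 384 to 549 CPM in PKO. This list was split, with 3 of 5 tested genes higher and 2 lower. The lower 2 were its most abundant, with overlapping groups: Notch3 (means of 223.5 for WT and 122.7 CPM for PKO) and Abcc9 (81.35 and 67.63 CPM). Rgs5 (17.1 and 98.7 CPM), Pdgfrb (6.79 and 124.9 CPM) and Cspg4 (11.9 and 33.3 CPM), named after their values were seen, were higher. Myogenic markers (10 of 10) summed to 11230 to 12420 CPM in WT and 8628 to 11690 CPM in PKO, so myogenic cells were present in every library. All 10 had a log2 fold change below 0, with a median of -0.235 against -0.015 over all genes tested. At an unadjusted p under 0.05 in edgeR 2 were lower, against 6.35% of all genes. The most abundant were Myog (means of 2678 for WT and 2346 CPM for PKO) and Des (2502 and 2182 CPM). Of 10 adipocyte markers 4 had values, which summed to 0.273 to 1.18 CPM in WT and 0.359 to 0.796 CPM in PKO, near the detection limit in both groups. Schwann and erythroid marker sums overlapped between the groups. The part of the stromal, leukocyte, endothelial, pericyte and myogenic differences in any result below was not tested.

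**Figure D1:**
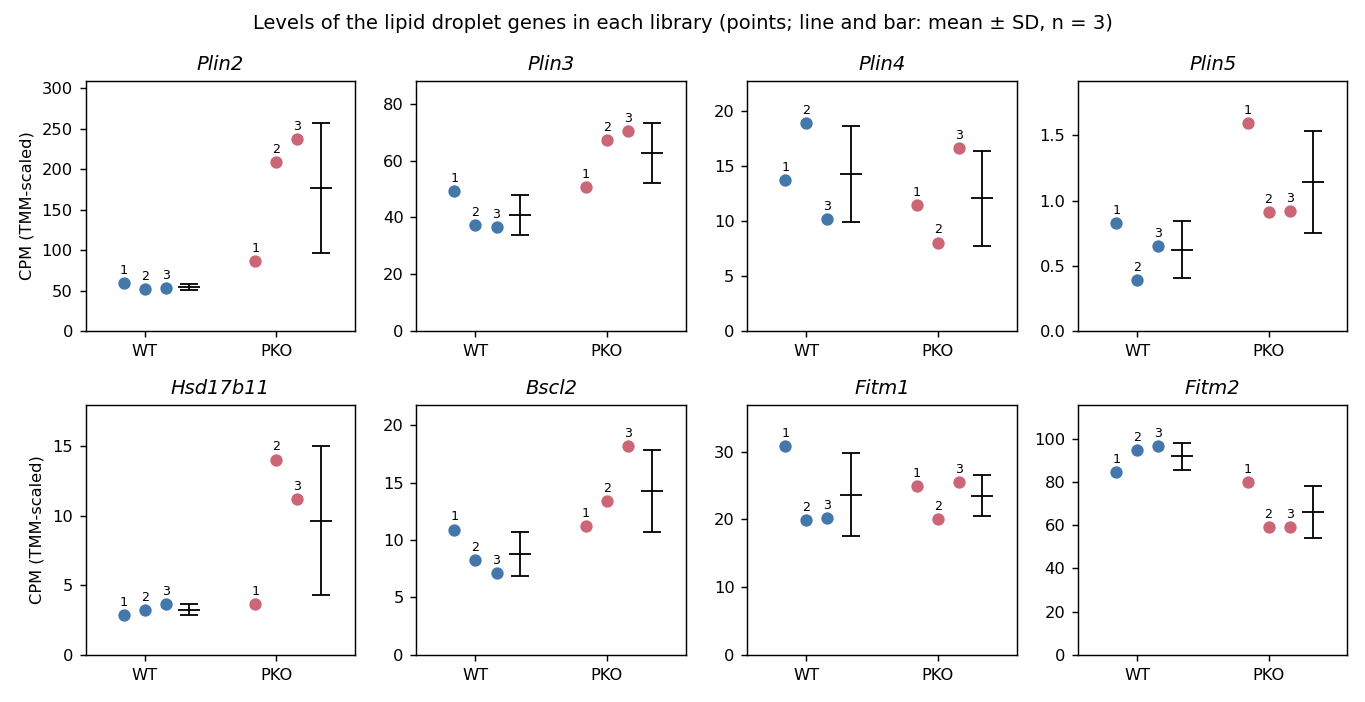
Level of each of the 8 measured genes (CPM, linear axes that start at 0 and differ between panels) in 3 WT and 3 PKO libraries. Points are libraries, numbered as in the labels; the black line and bar give the mean ± SD. Plin2 and Hsd17b11 stand highest in PKO 2 and PKO 3, and Fitm2 lowest there.

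Of the 8 measured genes, 5 had all PKO values above all WT values (Plin2, Plin3, Plin5, Bscl2 and Hsd17b11), 1 had all PKO values below all WT values (Fitm2), and the groups overlapped for 2 (Plin4 and Fitm1). Over all 14025 genes tested, 11.8% were higher and 9.7% lower without overlap. None of the 8 passed edgeR's quasi-likelihood test at an adjusted p of 0.05, and neither did any of the other genes tested (0% higher and 0% lower). At an unadjusted p under 0.05 there were 4 members higher (Plin2, Plin3, Hsd17b11 and Bscl2), against 10.2% of all genes, and 1 lower (Fitm2), against 6.35%. DESeq2, run on the same counts as a second test, called 2 members higher at its adjusted p threshold (Plin2 and Hsd17b11), against 4.73% of the 16192 genes that it gave an adjusted p, and 0 lower, against 0.933%. The median log2 fold change was 0.66 over the members and -0.01 over all genes tested. All 8 passed the filter on low counts.

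Plin2, the main droplet coat gene of cells other than adipocytes, had the largest difference of the 8. Its count was 1007, 789 and 970 (WT 1 to WT 3) against 1621, 3675 and 4625 (PKO 1 to PKO 3), or 59.4, 51.6 and 53.0 CPM against 86.3, 208.9 and 237 CPM. The 3 WT libraries lay within a 1.15-fold range, whereas the PKO libraries spanned a 2.75-fold range, and the lowest of them stood 26.9 CPM above the highest WT library. The means were 54.7 ± 4.16 CPM for WT against 177 ± 80.2 CPM for PKO (SD, n = 3 each), a ratio of 3.24. The log2 fold change was 1.70 ± 0.35 (SE), with an unadjusted p of 0.00181 and an adjusted p of 0.179 in edgeR's quasi-likelihood test. Only 0.741% of all genes tested had a smaller p in that fit. DESeq2 gave an adjusted p of 0.000179, and over the alternatives the adjusted p ran from that value to 0.566. In the authors' deposited table the log2 fold change of Plin2 is 1.47 with an adjusted p of 0.000156. An exact two-sided permutation test of the CPM values gave p = 0.1, the smallest that 3 against 3 libraries allow. PKO 2 and PKO 3, where Plin2 was highest, were also the libraries with the highest stromal marker sums (2220 and 1326 CPM). Most single stromal markers were higher in PKO 2 than in PKO 3. Col1a1 (858.2 and 249 CPM), Fbn1 (468 and 206 CPM), Dcn (68.3 and 41.2 CPM) and Thy1 (25.2 and 6.36 CPM) were among them. So were Col3a1 (679 and 642 CPM), Pdgfra (102 and 95.2 CPM) and, near the detection limit, Lum (0.512 and 0.205 CPM). Ly6a (14.7 and 71.1 CPM), Dpt (2.79 and 7.23 CPM) and Pi16 (0.398 and 8.2 CPM) were higher in PKO 3. Fbn1, Dcn, Thy1, Lum, Ly6a, Pi16 and Pdgfra were named after their values were seen.

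Plin3, the perilipin that also circulates in the cytosol and is loaded onto young droplets, differed less. It was at 49.1, 37.4 and 36.6 CPM (WT 1 to WT 3) against 50.6, 67.1 and 70.4 CPM (PKO 1 to PKO 3). The groups did not overlap, but PKO 1 exceeded WT 1 by only 1.43 CPM. The mean was 41.0 ± 7.05 CPM for WT against 62.7 ± 10.6 CPM for PKO (SD, n = 3 each), a 1.53-fold difference with a log2 fold change of 0.61 ± 0.18 (SE). With edgeR the adjusted p was 0.202 and with DESeq2 0.0786. The higher values were again those of PKO 2 and PKO 3.

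Plin5, the perilipin that ties droplets to mitochondria in heart and oxidative muscle, was close to the detection limit. It had 14, 6 and 12 reads (WT 1 to WT 3) against 30, 16 and 18 reads (PKO 1 to PKO 3), or 32 against 64 reads in all. The highest value, in PKO 1, has an exact Poisson 95% interval of 20.2 to 42.8 reads, and the next, in PKO 3, one of 10.7 to 28.4, which reaches below the 14 reads of WT 1; these intervals cover counting error only. The levels were 0.625 ± 0.218 CPM for WT against 1.14 ± 0.393 CPM for PKO (SD, n = 3 each), and the log2 fold change was 0.86 ± 0.46 (SE) with an adjusted p of 0.378 in edgeR. Unlike Plin2, Plin5 was highest in PKO 1, the knockout library with the lowest stromal sum.

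Plin4, a long perilipin with many repeats, had overlapping values in the 2 genotypes. It was at 13.7, 19.0 and 10.2 CPM (WT 1 to WT 3) against 11.5, 8.07 and 16.7 CPM (PKO 1 to PKO 3). The groups overlapped over most of their range, with a log2 fold change of -0.24 ± 0.33 (SE) and an adjusted p of 0.727 in edgeR. Its gene lies 1797 bases from that of Plin5 on chromosome 17 (Plin4 at 56100591 to 56109803 and Plin5 at 56111601 to 56117596, both on the minus strand of GRCm38), and Plin3 lies on the same strand 161365 bases beyond (56278962 to 56290511). Of these 3 neighbours, Plin3 and Plin5 had all PKO values above all WT values and Plin4 did not; differences between the genes were not tested.

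**Figure D2:**
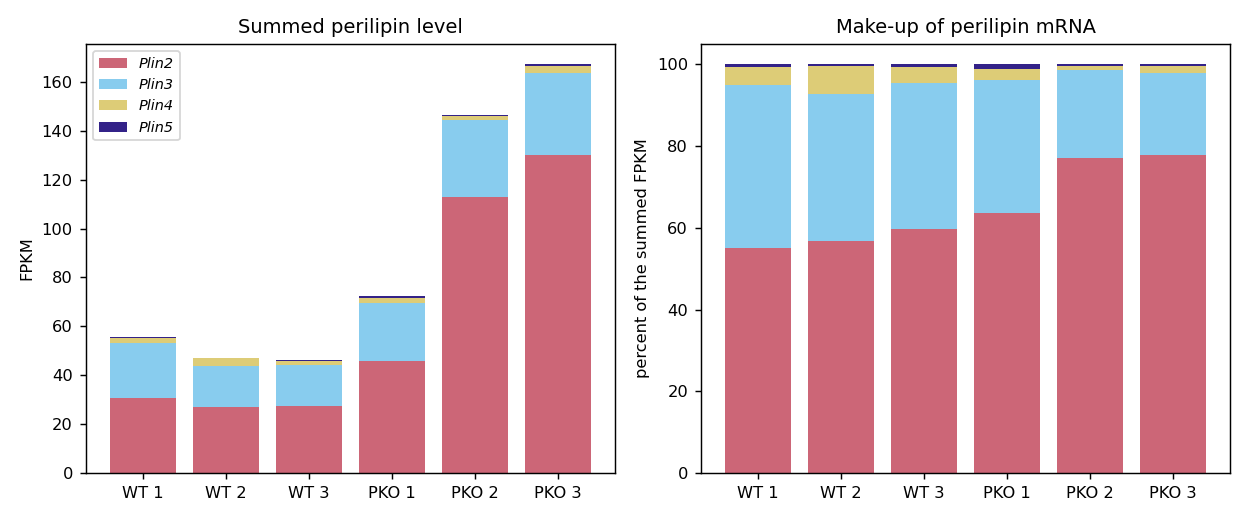
Perilipin mRNA in each library from the deposited FPKM values, stacked by gene: the summed level on the left and the make-up in percent on the right. The sum runs from 46.2 to 55.8 FPKM in WT and from 72.2 to 167 FPKM in PKO, and the Plin2 part is larger in each PKO library.

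Levels of different genes were compared per length, with the deposited FPKM (fragments per kilobase, scaled to library size). The 4 measured perilipins summed to 55.8, 47.2 and 46.2 FPKM (WT 1 to WT 3) against 72.2, 146.6 and 167 FPKM (PKO 1 to PKO 3). Plin2 made up 55.2%, 56.8% and 59.6% of that sum in the WT libraries and 63.5%, 77.0% and 77.7% in the PKO libraries. The mean share was 57.2 ± 2.24% in WT and 72.8 ± 8.01% in PKO (SD, n = 3 each), a difference of 15.6 percentage points (exact two-sided permutation p = 0.1, the smallest this design can give). The Plin3 share was 35.9% to 39.9% in WT and 20.2% to 32.6% in PKO, without overlap, while its own level was higher. Being a ratio within a library, the share does not depend on how libraries were scaled against each other. Plin2 stood at 1.38, 1.58 and 1.66 FPKM per FPKM of Plin3 (WT 1 to WT 3) against 1.95, 3.56 and 3.85 (PKO 1 to PKO 3).

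Hsd17b11, a dehydrogenase of the short-chain family that sits on the droplet surface, had the second largest difference and the most uneven one. It had 49, 49 and 67 reads (WT 1 to WT 3) against 69, 247 and 218 reads (PKO 1 to PKO 3), or 2.89, 3.21 and 3.66 CPM against 3.67, 14.0 and 11.2 CPM. PKO 1 therefore equalled WT 3 within counting error (Poisson 95% intervals of 53.7 to 87.3 and 51.9 to 85.1 reads), and PKO 2 and PKO 3 were the libraries that stood clear of WT. The mean was 3.25 ± 0.388 CPM for WT against 9.63 ± 5.35 CPM for PKO (SD, n = 3 each), a 2.96-fold difference. The log2 fold change was 1.56 ± 0.47 (SE), with an adjusted p of 0.206 in edgeR and 0.0253 in DESeq2, and over the alternatives from 0.0076 to 0.566. The authors' deposited table gives 1.21 and an adjusted p of 0.0251. PKO 2 and PKO 3 were also the libraries with the highest stromal marker sum, and most single stromal markers, though not all, were higher in PKO 2.

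**Figure D3:**
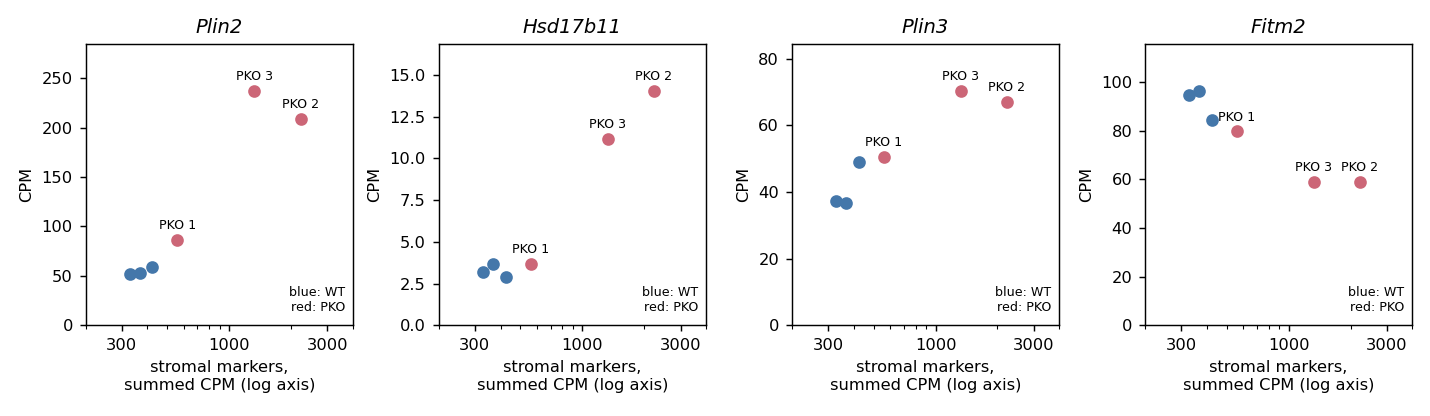
CPM of 4 members in each library against the summed CPM of 10 stromal markers (log axis), with WT in blue and PKO in red. PKO 2 and PKO 3 lie apart from the other 4 libraries on both axes; PKO 1, at 560 CPM of stromal markers, is above every WT library for Plin2 and level with WT 3 for Hsd17b11.

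The genes of droplet formation did not move as one. Bscl2 encodes seipin, which shapes nascent droplets and whose loss causes lipodystrophy. It was at 10.9, 8.24 and 7.16 CPM (WT 1 to WT 3) against 11.2, 13.4 and 18.1 CPM (PKO 1 to PKO 3). The groups stood apart by only 0.264 CPM, between WT 1 and PKO 1, and the log2 fold change was 0.70 ± 0.26 (SE; adjusted p = 0.262 with edgeR and 0.155 with DESeq2). Bscl2 shares 1728 bases with Gng3 on the other strand, which had 9 to 31 reads, and the strand setting of the counting is not given, so reads of both genes cannot be told apart; it also overlaps the annotated gene AC129217.1 by 3671 bases.

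Fitm2, the fat storage-inducing protein of most tissues, was the single member whose PKO values all lay below the WT values. It was at 84.7, 94.6 and 96.5 CPM (WT 1 to WT 3) against 79.8, 59.1 and 59.1 CPM (PKO 1 to PKO 3), with no overlap and a distance of 4.86 CPM between WT 1 and PKO 1. The mean was 91.9 ± 6.36 CPM for WT against 65.98 ± 11.96 CPM for PKO (SD, n = 3 each), so that PKO stood at 71.8% of WT. The log2 fold change was -0.48 ± 0.15 (SE), with an adjusted p of 0.218 in edgeR and 0.13 in DESeq2. The 2 lowest libraries were those with the highest stromal sums and the lowest myogenic sums (8628 CPM in PKO 2 and 9587 CPM in PKO 3, against 11230 CPM or more in the other 4).

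Fitm1, the paralog that is typical of skeletal muscle and heart, had overlapping values as well. It was at 30.8, 20.0 and 20.3 CPM (WT 1 to WT 3) against 24.96, 20.1 and 25.6 CPM (PKO 1 to PKO 3), so that the whole PKO range lay inside that of WT. The log2 fold change was -0.01 ± 0.21 (SE), its sign changed in 7 of 16 alternatives, and its adjusted p was 0.988 with edgeR. Antisense transcripts overlap both genes (Gm15932 for Fitm1, with 1 to 6 reads, and 2310001K24Rik for Fitm2, with 0 to 5 reads). Fitm1 per Fitm2 was 1.49, 0.863 and 0.861 in the WT libraries and 1.28, 1.39 and 1.77 in the PKO libraries on the FPKM scale, which overlapped because of WT 1 (exact two-sided permutation p = 0.3).

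Per length, the members formed an abundant and a scarce set in both genotypes. In WT the order of mean FPKM was Plin2 (28.4), Fitm1 (23.9), Fitm2 (22.7) and Plin3 (18.6), then Bscl2 (2.46), Plin4 (2.44), Hsd17b11 (1.43) and Plin5 (0.308). Among the first 4 no neighbours were separated beyond their range, nor were Bscl2 and Plin4. In PKO the order was Plin2 (96.3), Plin3 (29.7), Fitm1 (24.8) and Fitm2 (16.9), then Hsd17b11 (4.42), Bscl2 (4.16), Plin4 (2.15) and Plin5 (0.585). There Plin2 stood clear of Plin3 in range, whereas Plin3 overlapped Fitm1 and Hsd17b11 overlapped Bscl2.

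**Figure D4:**
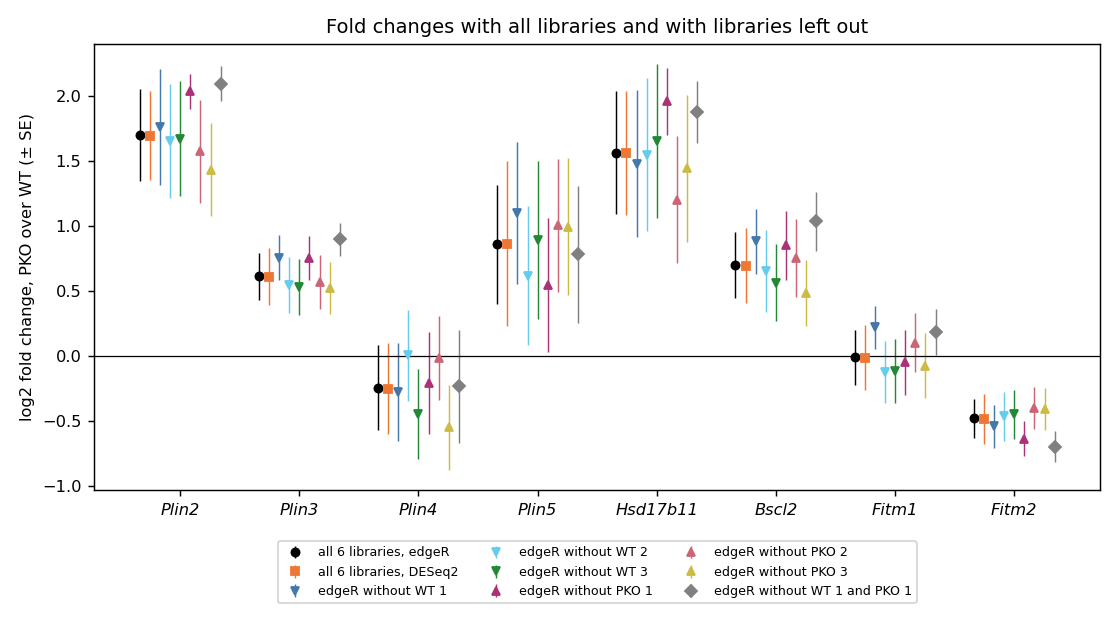
Log2 fold change (PKO over WT, ± SE) of each gene with all 6 libraries in edgeR and DESeq2, and in edgeR with 1 library or both WT 1 and PKO 1 left out. Plin2, Plin3, Plin5, Hsd17b11 and Bscl2 stay above 0 and Fitm2 below 0 in each of these fits, and the SE of Plin2 is smallest where PKO 1 is left out.

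The calls depended on the libraries numbered 1. WT 1 was nearest to the knockout libraries among the WT libraries for Plin2, Plin3, Bscl2 and Fitm2, and PKO 1 was nearest to WT for the same genes and for Hsd17b11. Without PKO 1, edgeR called 2 members higher (Plin2, adjusted p = 0.00246, and Hsd17b11, adjusted p = 0.0129), against 4.54% of 14504 genes higher and 0.538% lower. Without both WT 1 and PKO 1 it called 4 members higher (Plin2, Plin3, Bscl2 and Hsd17b11), against 10.2% of 14296 genes, and 1 lower (Fitm2), against 5.63%. That fit set 2 libraries against 2. Leaving out the libraries nearest to the other group widens the differences by construction, so the calls of these 2 fits are no separate support. Leaving out WT 1, WT 2, WT 3, PKO 2 or PKO 3 alone gave 0 calls among the members, with adjusted p-values of Plin2 of 0.0793, 0.523, 0.566, 0.403 and 0.475. Over all genes, 517 were called higher and 483 lower without WT 1. Without WT 2, WT 3, PKO 2 or PKO 3 alone, 0 genes were called in either direction. Without WT 3 the number of members at an unadjusted p under 0.05 was 3 in place of 5.

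Other genes of the coat families added little. No row matched Plin1, so the perilipin sums and shares above leave it out. Cidea had 2 to 12 reads and Cideb 2 to 12 reads in a library, with overlapping groups, and neither passed the filter on low counts. Both encode proteins that enlarge droplets in fat and liver.

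Among proteins that build droplets or are recruited to them, 40 of 41 listed genes had a row and 37 were tested. Of these 21 were higher and 16 lower in PKO, with a median log2 fold change of 0.06 against -0.01 over all genes tested. At an unadjusted p under 0.05 in edgeR, 2 were higher and 5 lower, against 10.2% and 6.35% of all genes tested. At the adjusted threshold edgeR called 0, and DESeq2 called 1 higher and 0 lower, against 4.73% and 0.933% of all genes. The gene called was Dhrs3, a retinal reductase found on droplets, at 1.77, 1.05 and 1.09 CPM (WT 1 to WT 3) against 2.93, 21.0 and 13.1 CPM (PKO 1 to PKO 3; log2 3.24 ± 0.70, adjusted p = 0.179 with edgeR and 4.38e-05 with DESeq2). Over the PKO libraries Dhrs3 followed the same uneven order as Hsd17b11. Among the WT libraries it was highest in WT 1, where Hsd17b11 was lowest. Agpat3, an acyltransferase of phospholipid and triglyceride synthesis, was lower in each PKO library (315 ± 34.03 CPM for WT against 224 ± 25.03 CPM for PKO, adjusted p = 0.195 with edgeR). Spart, which encodes spartin, a droplet turnover protein, was at 137 ± 8.22 and 105 ± 12.4 CPM (adjusted p = 0.226 with edgeR), also without overlap.

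The lipases that work on the droplet and their regulators counted 10 of 12 listed genes with a row and 8 tested, 6 higher and 2 lower (median 0.06). At an unadjusted p under 0.05 in edgeR, 1 was higher and 1 lower, against 10.2% and 6.35% of all genes tested, and at the adjusted threshold 0 were called. DESeq2 called Lipa higher, against 4.73% of all genes, and Pnpla2, the targeted gene itself, lower, against 0.933%. Lipa, the acid lipase of the lysosome, was at 21.1, 20.0 and 19.7 CPM (WT 1 to WT 3) against 26.3, 40.4 and 34.4 CPM (PKO 1 to PKO 3; adjusted p = 0.185 with edgeR, 0.0232 with DESeq2). Abhd5, the coactivator of adipose triglyceride lipase that perilipins bind, was at 26.4 ± 1.503 CPM for WT against 30.1 ± 2.57 CPM for PKO, with a log2 fold change of 0.19 ± 0.13 (SE; adjusted p = 0.489 with edgeR). Per length, the FPKM of Plin2 was 3.91, 1.87 and 2.19 times that of Pnpla2 (WT 1 to WT 3) against 14.2, 18.2 and 21.3 times (PKO 1 to PKO 3), a ratio whose lower term is the targeted gene.

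Genes for the breakdown of coat proteins (11 of 12 listed were tested) had 3 members higher and 8 lower, with a median log2 fold change of -0.04. There were 0 calls by edgeR, against 0% of all genes, and 0 by DESeq2, against 4.73% higher and 0.933% lower. At an unadjusted p under 0.05 in edgeR, 2 were higher (Lamp2 and Ubxn8) and 0 lower, against 10.2% and 6.35% of all genes tested. Lamp2, whose product takes perilipins 2 and 3 into the lysosome in chaperone-mediated autophagy, was at 246, 174 and 178 CPM (WT 1 to WT 3) against 242, 315 and 297 CPM (PKO 1 to PKO 3). The groups overlapped through WT 1 and PKO 1 (log2 0.52 ± 0.18, adjusted p = 0.253 with edgeR). Ubxn8, an endoplasmic reticulum protein of the degradation route, was at 7.30 ± 0.594 and 10.4 ± 1.81 CPM, and Ubr1, a ubiquitin ligase, at 86.0 ± 9.77 and 65.2 ± 13.6 CPM (adjusted p = 0.29 and 0.32 with edgeR).

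PPARs, the fatty acid-sensing receptors for which Plin2 is a well known target, and their partners were split. All 12 listed genes were tested, 6 higher and 6 lower (median -0.16), and neither edgeR nor DESeq2 called any of them. Over all genes edgeR called 0%, and DESeq2 called 4.73% higher and 0.933% lower. At an unadjusted p under 0.05 in edgeR, 1 was higher and 3 were lower, against 10.2% and 6.35% of all genes tested. Pparg, the receptor of fat cell formation, was at 2.77, 1.70 and 1.42 CPM (WT 1 to WT 3) against 5.004, 2.84 and 5.95 CPM (PKO 1 to PKO 3; log2 1.23 ± 0.40, adjusted p = 0.227 with edgeR). Its highest values were those of PKO 1 and PKO 3, so its order over the libraries was not that of Plin2. The coactivator gene Ppargc1a was at 25.6 ± 5.93 CPM for WT against 14.9 ± 4.64 CPM for PKO (adjusted p = 0.253 with edgeR), and Med1, a Mediator subunit that binds these receptors, at 107 ± 2.03 and 81.0 ± 14.1 CPM (adjusted p = 0.267).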

How the data were processed

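RNA of 6 libraries (3 WT, 3 PKO, grouped by title) was analysed. Paired 150 bp reads were mapped to GRCm38 (mm10) by TopHat2, and HTSeq 0.6.1 gave the gene counts, per the submitters' processing notes; annotation version and strand setting were not given in the sources used here. The deposited counts are whole reads per gene and started every test. The authors computed the deposited FPKM from them, used here for levels between genes. A deposited normalized signal (counts divided by one factor per library) was not used. The authors' deposited log2 fold changes and p-values came from DESeq2 or edgeR, both named in the series text, and are printed only as theirs. For every measured member their adjusted p lay nearer to that of DESeq2 here than to that of edgeR. For Plin2 it was 0.000156, against 0.000179 with DESeq2 and 0.179 with edgeR. They are no separate test beside DESeq2.

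The main test was run in edgeR 4.0.16 under R 4.3.3, with the filterByExpr filter on low counts, TMM factors, a robust quasi-likelihood fit on genotype and Benjamini-Hochberg adjustment over all genes tested at a threshold of 0.05. CPM used the same factors. DESeq2 1.42.0 and limma-voom (limma 3.58.1) were alternatives; single values had exact permutation tests (scipy 1.17.1). The fits were also run on simulated data, as a check of the code only. Named genes were all members, Cidea, Cideb, Pnpla2, and of each other list the 3 tested genes with the smallest edgeR p; the 2 most abundant genes of a marker list, and, for the closing observations, the 8 genes most and 3 least like Plin2 over the libraries. The members, lists and alternatives were chosen with earlier results of these data known. No 2 libraries of a group agreed within sampling noise. WT 2 and WT 3 came closest, with a chi-square of counts per degree of freedom of 6.35. WT 1 stood at 56.3 from WT 2 and 52.6 from WT 3, and the PKO pairs ran from 51.0 to 72.8.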

Additional observations from a re-analysis of the deposited data

How the results depend on the processing

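With DESeq2 in place of edgeR, 766 genes were called higher and 151 lower, and 2 members were called, with Plin2 at 1.69 on the log2 scale. Leaving out 1 library in turn gave 0 to 659 genes higher and 0 to 483 lower, 0 to 2 members called and 3 to 5 members at an unadjusted p under 0.05, with the log2 fold change of Plin2 between 1.43 and 2.03. Without WT 1 alone, 517 genes were higher and 483 lower. Without WT 1 and PKO 1, which left 2 libraries against 2, 1461 genes were higher, 805 lower and 5 members called, with Plin2 at 2.09. The causes were not tested. Deviations of same-numbered libraries from their group means correlated at 0.103, -0.025 and 0.129 for numbers 1 to 3. Differently numbered libraries ran from -0.207 to 0.122. Those numbered 1 and 3 correlated best with their own number and those numbered 2 did not. With 3 libraries per group these values cannot decide if the numbers pair the libraries. With the replicate block 1 gene was higher, 0 members were called and Fitm1 was at 0.013, with Plin2 at 1.58. The sign of Fitm1 also changed with limma-voom (0.015), upper-quartile factors (0.0046), library size only (0.0497), without WT 1 and PKO 1 (0.18), and when single libraries were left out (-0.12 to 0.22). That of Plin4 changed without WT 2 (0.0067; range -0.55 to 0.0067 over single libraries left out). The other 6 members kept their direction in every alternative run, although Plin5 had no value under a mean of at least 1 CPM. The Plin2 share differed by 13.1 to 20.2 percentage points with 1 library left out and by 18.4 from CPM. Groups overlapped for 2 of 8 members under each scaling. Depth limits Plin5 most, with 32 reads over the WT libraries and 64 over the PKO libraries.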

Other observations

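The 8 protein-coding genes whose log2 CPM over the 6 libraries followed Plin2 most closely, among 9110 with a mean of at least 10 CPM, were Odc1, Pdpn, Rab5c, Ecm1, Mmp2, Vasn, Ereg and Fxyd5, with Pearson correlations of 0.997 to 0.993. They are a description over 6 libraries in 2 genotypes and carry no test. Pdpn, the membrane glycoprotein podoplanin, was at 122, 103 and 103 CPM (WT 1 to WT 3) against 164, 304 and 372 CPM (PKO 1 to PKO 3). Mmp2, a matrix protease, was at 20.4, 13.5 and 16.8 CPM and at 28.3, 179 and 208 CPM. Odc1, the first enzyme of polyamine synthesis, was at 287, 261 and 273 CPM and at 316, 472 and 487 CPM. Since these genes were chosen for their likeness to Plin2, the library order they share with it is no separate observation. The lowest correlations were those of Atp8a1, a phospholipid flippase (-0.995, at 33.8 CPM for WT against 20.3 CPM for PKO), Armcx2 and Wdr33. Of the members, Plin3 ranked 267 and Bscl2 550 from the top of the 9110, Fitm1 ranked 3937 (r = 0.009), Plin4 ranked 4821 (r = -0.23) and Fitm2 ranked 9099.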
